A study of Schizosaccharomyces pombe with 4 samples.

Results

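The Sty1-Atf1 stress pathway of fission yeast was followed through 10 genes of the 5143 in the 24°C table. Taken by their systematic identifiers, these were sty1, wis1, atf1, pcr1, pyp1, pyp2, gpd1, ntp1, tps1 and sro1. They were chosen with earlier results of these data known. The poly(A) RNA of a wild-type strain was compared with that of S. pombe fas S.j. cells, whose open reading frames for both subunits of the cytosolic fatty acid synthase, fas1 and fas2, were exchanged for those of S. japonicus with the native flanking regions kept. Both strains grew exponentially in the rich medium YES at either 24°C or 30°C, and 1 library was made per strain and temperature, 4 in all. No library therefore had a replicate, and the values below compare libraries, with no test and no p-value. The fas S.j. strain also carried the kanMX6 and hygR selection cassettes, and which of the fas S.j. strains of the study was sequenced is not given in the sources used here. The study lists an h- prototrophic wild type. Its untagged fas S.j. strains are an h- strain with ade6, ura4 and leu1 marker alleles and an h+ prototroph. Either of these would differ from that wild type in nutritional markers or in mating type.

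Sty1 is the mitogen-activated protein (MAP) kinase of a cascade that responds to osmotic, oxidative and heat stress and to starvation. The MAP kinase kinase Wis1 phosphorylates Sty1, which then enters the nucleus and acts on the transcription factor Atf1, a bZIP protein that pairs with Pcr1 on DNA sites of the cyclic AMP response element type. The tyrosine phosphatases Pyp1 and Pyp2 switch Sty1 off again, and pyp2 is itself induced through Atf1, which closes a feedback loop. Targets such as gpd1, tps1 and ntp1 serve the making and breakdown of glycerol and trehalose, which protect stressed cells. The cascade is switched by phosphorylation, which mRNA levels do not measure.

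Levels are given in FPKM, the fragments per kilobase of a gene and per 1000000 fragments of the library. Changes are log2 of FPKM + 1 in fas S.j. over FPKM + 1 in wild type, a scale on which weakly expressed genes show less than their true fold, and a gene counted as called when its change lay beyond 0.8 in either direction. The replaced genes matched their labels, with fas1 at 301 FPKM in the wild type and 7.35 after the exchange at 24°C, and at 344 and 16.6 at 30°C, and with fas2 at 336 and 0.320 at 24°C and at 347 and 0.832 at 30°C. The steps between low FPKM values placed the depth at 24°C near 13100000 fragments for wild type and 10200000 for fas S.j., an approximate estimate. At that depth the counting error of the 10 changes was between 0.014 and 0.10 (SE, log2 scale), which leaves out the variation between cultures. In bulk RNA, fewer cells that make an mRNA and less of it per cell cannot be told apart.

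Because atf1 and several of its targets are known to be read by Atf1 and Pcr1 themselves, the promoters that hold such a site are shown here. Windows ran from 250 bases before to 50 after the annotated gene start in the RefSeq annotation of ASM294v3, and the core TGACGT was searched on both strands. It was present in 3 of the 10 promoters, those of atf1, gpd1 and ntp1, and in 5.89% of all 5124 promoters of protein-coding genes. The longer ATGACGT, which contains the core and is known as the M26 site, was found in the same 3 promoters and in 1.54% of all. The full palindrome TGACGTCA, in which the core is read on either strand, was found for atf1 only and in 0.273% of all promoters. The stretches are shown 5′ to 3′ on the strand of the gene, the plus strand in each case, with the core in capitals (ACGTCA is the core read on the opposite strand).
atf1, chrII:1546141-1546196: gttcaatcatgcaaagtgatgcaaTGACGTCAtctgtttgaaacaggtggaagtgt
gpd1, chrII:4035419-4035521: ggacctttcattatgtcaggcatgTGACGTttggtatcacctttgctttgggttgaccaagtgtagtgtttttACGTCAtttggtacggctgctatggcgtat
ntp1, chrII:206488-206541: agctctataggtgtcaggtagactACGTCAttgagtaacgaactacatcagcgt

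**Figure D1:**
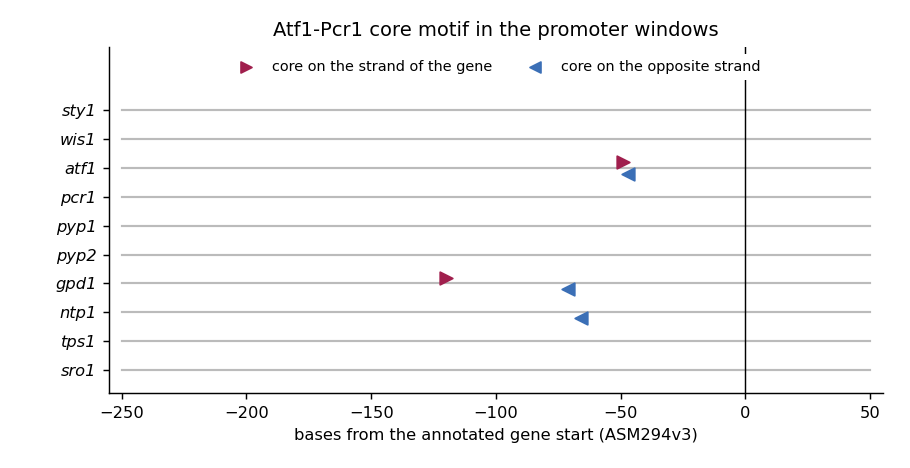
Position of the core motif in the promoter window of each of the 10 genes (x axis, bases from the annotated gene start). Arrowheads point right for the strand of the gene and left for the opposite strand, and only atf1, gpd1 and ntp1 hold a match.

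At 24°C the 10 genes went in both directions. Of them, 5 were higher and 5 lower as compared to the wild type, with a median change of -0.10 against 0 over all genes. The 5 higher genes include atf1, whose change was only 0.0021. The call limit was passed by sro1 alone, which was lower. Over all 5143 genes, 2.06% were called lower and 4.28% higher, so a count of 1 lower and 0 higher genes of 10 was not read as a result about these genes. With a limit of 0.5, sro1, pcr1 and pyp2 were lower and gpd1 was higher, that is 3 and 1 of 10 genes, beside 4.12% of all genes lower and 8.81% higher. The genes of the cascade and its switches were level or lower except for pyp1, and gpd1, tps1 and ntp1 were higher, in each case short of the call limit.

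**Figure D2:**
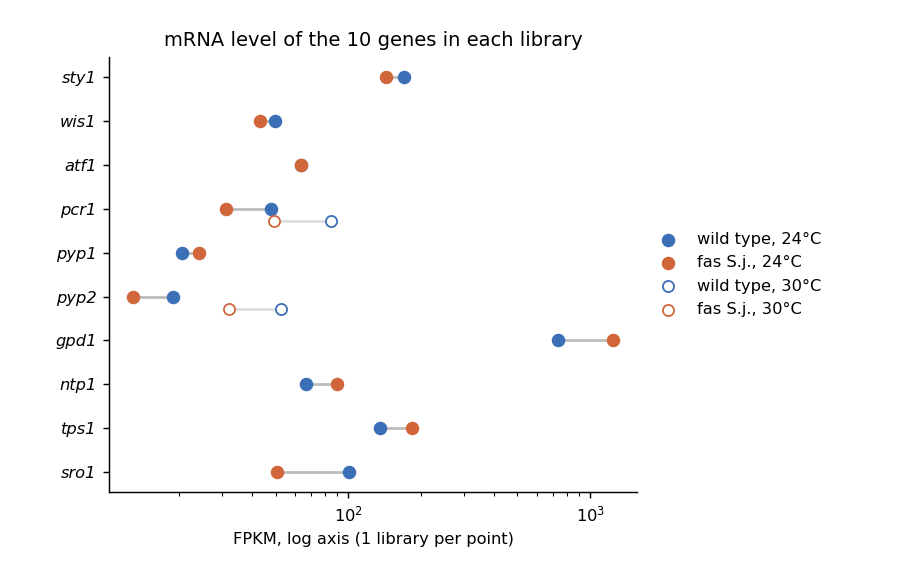
FPKM (log axis) of each of the 10 genes, with wild type in blue and fas S.j. in orange. Filled points are the libraries at 24°C and open points those at 30°C, where pcr1 and pyp2 are listed. The levels at 24°C span from 12.9 FPKM for pyp2 to 1242 FPKM for gpd1, both in fas S.j., and the points of atf1 lie on top of each other.

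The kinase genes of the cascade had small changes, neither of them called. The MAP kinase gene sty1 (SPAC24B11.06c, chromosome I of ASM294v3, 206476 to 208136) was at 170 FPKM in the wild type and 143 in fas S.j. cells, a change of -0.24. Its activator wis1 (SPBC409.07c, chromosome II, 1143731 to 1146603) was at 49.7 and 43.1 FPKM, a change of -0.20. Each shared its Cuffdiff locus with 1 more gene, SPAC24B11.05 and uch2, which had changes of -0.12 and 0.03. Both kinase values lay inside the range from -0.43 to 0.63 that held all but the lowest and highest 5% of the 4543 genes averaging at least 10 FPKM. The kinase mRNA was thus more abundant than that of its activator in either strain, and the ratio of sty1 to wis1 FPKM within a library was 3.42 in the wild type and 3.32 in fas S.j.

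The partners Atf1 and Pcr1 differed in their mRNA. The gene atf1 (SPBC29B5.01, chromosome II, 1546217 to 1549862) had 63.6 FPKM in the wild type and 63.7 in fas S.j. cells, a change of 0.0021, and was the gene of the 10 nearest to no change. In contrast, pcr1 (SPAC21E11.03c, chromosome I, 4252142 to 4253600) had 47.9 FPKM in the wild type and 31.1 in fas S.j. cells, a change of -0.61. It ranked 160 from the bottom among the 5143 changes. Like pyp2, gpd1 and sro1, it lay outside the central range of expressed genes, and it was short of the call limit. The ratio of atf1 to pcr1 FPKM was accordingly 1.33 in the wild type and 2.05 in fas S.j. Both genes were alone in their Cuffdiff locus, so no other gene of the table shared their fragments. The reference also places 1 long non-coding RNA on the same strand over atf1, and 1 over gpd1, and how fragments from these were counted was not tested.

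The tyrosine phosphatase genes went in opposite directions. The gene pyp1 (SPAC26F1.10c, chromosome I, 5161512 to 5163360), for the phosphatase that acts on Sty1 in unstressed cells, was at 20.6 FPKM in the wild type and 24.0 in fas S.j. cells, a change of 0.21. The stress-induced pyp2 (SPAC19D5.01, chromosome I, 5202656 to 5205202) was at 18.9 and 12.9 FPKM, a change of -0.52, which placed it 205 from the bottom of all changes. Their mRNAs were at similar levels in wild type, with a ratio of pyp2 to pyp1 of 0.918, whereas that ratio was 0.536 in fas S.j. These were the lowest levels among the 10 genes in both strains, with an estimated 445 and 406 fragments for pyp1 and 581 and 310 for pyp2, so their counting errors, 0.099 and 0.10, were also the largest. Both genes shared a locus with other genes. The neighbour of pyp2, emc10, overlaps it by 48 bases on the opposite strand in the reference and had a change of 0.0071. The neighbours of pyp1, gyp51 and SPAC26F1.11, had changes of -0.25 and 0.75, the latter at levels of only 0.0547 and 0.771 FPKM.

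**Figure D3:**
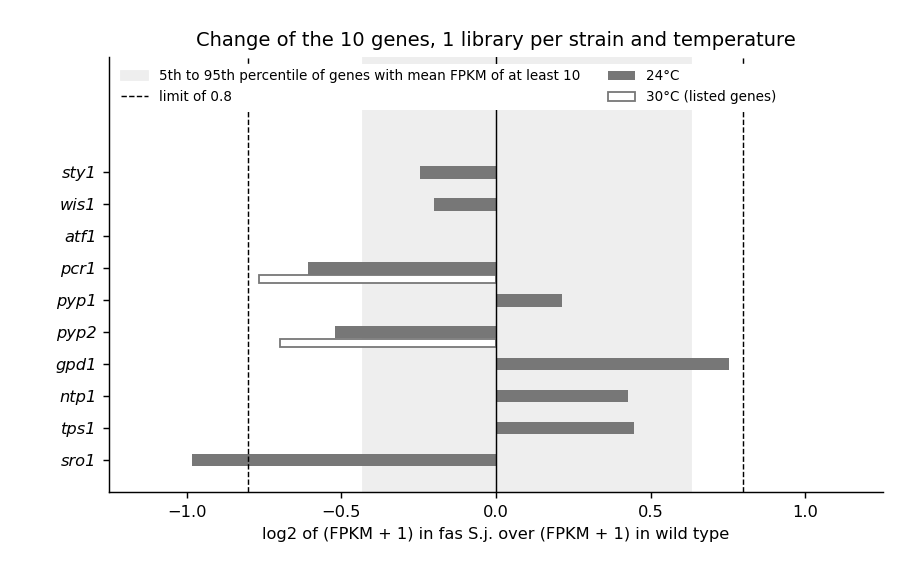
Change of each gene (x axis, log2 of the ratio of FPKM + 1, fas S.j. over wild type) at 24°C (grey bars) and, for the genes listed there, at 30°C (open bars). The dashed lines mark the call limit of 0.8 and the shaded band the central range of genes averaging at least 10 FPKM, and sro1 alone passes the limit.

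Of the metabolic targets, gpd1 stood out by its level. The gene gpd1 (SPBC215.05, chromosome II, 4035566 to 4037342) encodes a glycerol-3-phosphate dehydrogenase, which supplies the precursor of glycerol. It had 736 FPKM in the wild type and 1242 in fas S.j., 1.69-fold higher without the pseudocount, a change of 0.75 that lay just under the call limit and ranked 238 from the top of the table. Its relative gpd2, alone in its locus as well, was also higher, at 197 and 290 FPKM with a change of 0.56, and the ratio of gpd1 to gpd2 was 3.74 in the wild type and 4.28 in fas S.j. Their coding sequences share 65.5% identity over 1022 aligned bases. No near-identical copy, set as 90% identity over 50% of the coding length, was found for any of the 10 genes.

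Of the trehalose genes, tps1 and ntp1 had similar changes, both short of the call limit. The trehalose-6-phosphate synthase gene tps1 (SPAC328.03, chromosome I, 3479149 to 3481305) was at 134 FPKM in the wild type and 184 in fas S.j. cells, a change of 0.45. The neutral trehalase gene ntp1 (SPBC660.07, chromosome II, 206581 to 209641) was at 66.4 and 89.8 FPKM, a change of 0.43. Their ratio within a library was 2.02 in the wild type and 2.05 in fas S.j.. In its locus tps1 was paired with dbl4, which overlaps it by 12 bases on the same strand and had a change of -0.28. The related synthase gene SPACUNK4.16c had 122 and 166 FPKM, a change of 0.44, while tpp1, for the phosphatase that completes trehalose synthesis, had 95.8 and 98.6 FPKM, a change of 0.040.

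The stress-responsive gene sro1 (SPBC1347.11, chromosome II, 4081859 to 4083198) was the gene of the 10 with the lowest change. It had 101 FPKM in the wild type and 50.5 in fas S.j. cells, a change of -0.98, and ranked 87 from the bottom of the table. The estimated number of fragments was 1492 in the wild type and 585 in fas S.j., which gives a counting error of 0.070. By level it was 4th among the 10 genes in the wild type and 6th in fas S.j., below both ntp1 and atf1 there. In the reference the uncharacterized gene SPBC1347.14C, which is not in the 24°C table, overlaps sro1 over 366 bases on the opposite strand. Each of the 10 genes is overlapped on the opposite strand by at least 1 long non-coding RNA in this reference, 6 in the case of ntp1. The study's methods describe the libraries as strand-specific, but whether the authors' mapping and counting used strand is not given in the sources used here. If they did not, sense and antisense fragments cannot be told apart.

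**Figure D4:**
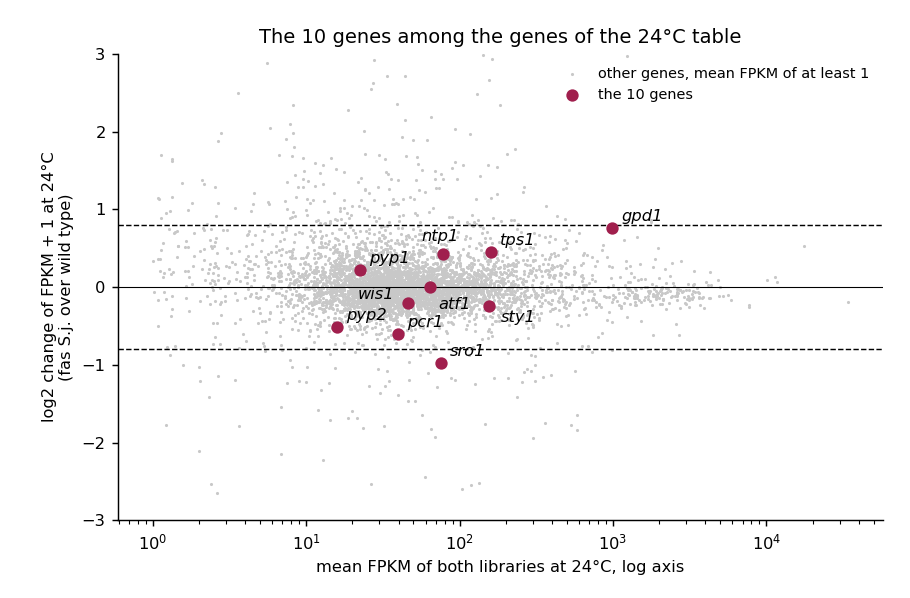
Change at 24°C (y axis, log2 of the ratio of FPKM + 1) against the mean FPKM of both libraries (log axis) for genes averaging at least 1 FPKM, with the 10 genes in red. Dashed lines mark the call limit of 0.8, and 23 genes with changes beyond 3 lie outside the frame. Most of the 10 genes sit within the cloud, with gpd1 at its upper edge and sro1 and pcr1 at its lower edge.

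In order of level, gpd1 was first in either strain and gpd1, sty1 and tps1 made up the top 3, with tps1 above sty1 in fas S.j. and below it in wild type. The last 4 places were held in both strains by wis1, pcr1, pyp1 and pyp2, in that order. With 1 library per strain the spread that would separate neighbours in this order is unknown. The levels of wis1 and pcr1 in wild type, 49.7 and 47.9 FPKM, and those of atf1 and ntp1, 63.6 and 66.4 FPKM, were the closest pairs of the middle ranks.

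At 30°C the table that was analysed lists 285 genes, 5.54% of those of the 24°C table, and each was lower in fas S.j., with -0.50 as the highest log2 ratio without a pseudocount. It lists pcr1 and pyp2, 2 of the 10 genes, and these were also the lower genes of their pairs at 24°C. The level of pcr1 was 84.3 FPKM in the wild type and 49.2 in fas S.j. cells, a change of -0.76. That of pyp2 was 52.5 and 31.9 FPKM, a change of -0.70. Neither reached the limit of 0.8, which 30.5% of the listed genes passed. Because a gene is in this table for its low value in that comparison, the direction of these 2 changes is fixed by the listing and was not read as a further result. The remaining 8 genes, including sro1, are not among the falls listed at 30°C, and their levels there were not analysed here. Whether every fall is listed is not known, so their absence does not show that they were unchanged at 30°C.

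The tables of the 2 temperatures were normalized separately, so a level at 24°C cannot be set directly against one at 30°C, but the ratio of 2 genes within a library can. For pyp2 over pcr1, a pair taken after its values were seen, the ratio at 24°C was 0.394 in the wild type and 0.414 in fas S.j. cells. At 30°C it was 0.622 and 0.649. Both genes are in the 30°C table because they were low in fas S.j. there, which limits how far their ratio could differ between the strains, so the ratios are given as values only.

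The promoters with the core were then set beside the changes. In atf1 the overlapping cores start 52 and 50 bases before the gene start, in gpd1 they start 123 and 74 bases before it, and in ntp1 the single core starts 69 bases before it. These 3 genes had changes of 0.0021, 0.75 and 0.43 at 24°C. Of them gpd1 and ntp1 were higher in fas S.j., while the change of atf1 was smaller than its counting error of 0.040. The genes that were lower by at least 0.5, sro1, pcr1 and pyp2, had no match in their windows. Nor did tps1, wis1, sty1 and pyp1, with changes of 0.45, -0.20, -0.24 and 0.21, so genes without the core were found on both sides of 0 and tps1 had a change as high as that of ntp1. With the window extended to 1000 bases before the start, chosen after the data were seen, the core was also present for pyp2, and in 14.9% of all promoters. A match of letters is a description and not a measured binding site. For pyp1 the annotated gene start coincides with the start of the coding sequence, so its window may miss the promoter.

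Beyond these genes, 38 others of the pathway and of related pathways were taken in 9 lists. Of them, 2 were called higher and 2 lower, 5.26% in each direction beside 4.28% and 2.06% of all genes, and the median change was 0.050. With so few called genes, these counts were not read as a result about the pathway. The sensor, relay, MAP kinase kinase kinase and phosphatase genes had changes inside the central range of expressed genes. Among the 6 sensor and phosphorelay genes, changes ran from -0.28 for mpr1, for the phosphotransfer protein of the relay, to 0.28 for mak2, for a histidine kinase. The MAP kinase kinase kinase genes wis4 and win1, which act on Wis1, had changes of -0.0040 and -0.17. The serine-threonine phosphatases of the type 2C family ranged from -0.10 for ptc2 to 0.36 for ptc3, the latter at 334 and 429 FPKM. None of these 11 genes was called.

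**Figure D5:**
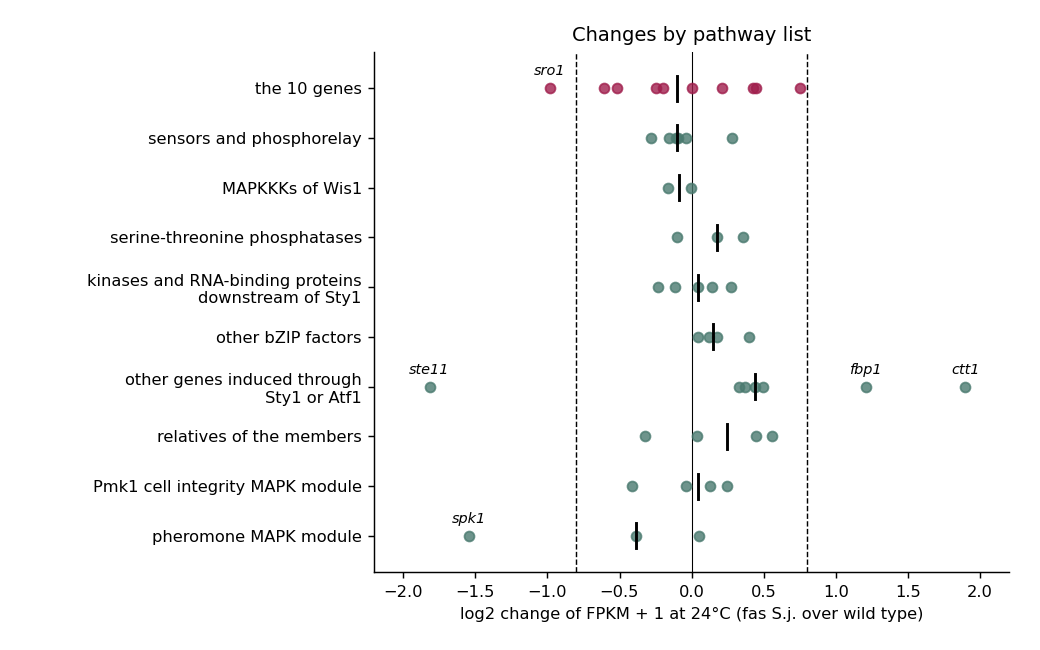
Change at 24°C (x axis, log2 of the ratio of FPKM + 1, fas S.j. over wild type) of the 10 genes (red) and of 38 further genes in 9 lists (green), 1 point per gene. Black bars are list medians and dashed lines the call limit of 0.8, beyond which sro1, ctt1, fbp1, ste11 and spk1 are named.

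Among the 5 genes for proteins that act downstream of Sty1, changes ran from -0.23 for csx1, for an RNA-binding protein that stabilizes atf1 mRNA in oxidative stress, to 0.28 for the kinase gene cmk2. Of the 4 other bZIP genes none was called, and their changes ran from 0.046 for atf31, at 4.04 and 4.20 FPKM, to 0.40 for pap1, for the regulator of the oxidative stress response, at 63.0 and 83.5 FPKM. Among the relatives of the 10 genes, pyp3, a phosphatase gene that acts in the cell cycle, was lowest with a change of -0.32, at 74.1 and 59.1 FPKM.

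The 7 other genes known to be induced through Sty1 or Atf1 held the widest changes, with a median of 0.44 against 0 over all genes. Of them, 2 (28.6%) were called higher and 1 (14.3%) lower, beside 4.28% and 2.06% of all genes. The list was chosen with earlier results of these data known, so its spread and counts were not read as a result about the pathway. The catalase gene ctt1 had 25.5 FPKM in the wild type and 97.9 in fas S.j. cells, a change of 1.90, and was called higher. The gluconeogenic fructose-1,6-bisphosphatase gene fbp1, which is repressed by glucose, had 15.2 and 36.5 FPKM, a change of 1.21, and was called higher too. In contrast ste11, for the regulator of sexual development, had 37.1 and 9.81 FPKM at 24°C, a change of -1.82, and was called lower. It was also the 1 gene of the 38 listed at 30°C, with 22.4 and 5.87 FPKM. The other 4 genes, gpx1, hsp9, cta3 and ish1, had changes between 0.33 for hsp9 and 0.50 for gpx1 and were not called. These genes also answer to regulators other than Atf1, such as Pap1 for ctt1, and the part of any regulator was not tested.

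Of the other MAP kinase modules, that of cell integrity had no called gene, with changes from -0.41 for pmp1, for the phosphatase of Pmk1, to 0.24 for pek1, for its MAP kinase kinase. In the pheromone module, the MAP kinase gene spk1 was called lower, at 10.7 and 3.01 FPKM with a change of -1.54, while byr1 and byr2 had changes of -0.38 and 0.054. The fragments of spk1 are shared with 1 more gene in its locus. Of the other genes named from the lists, mak2, mpr1, wis4, cmk2, atf31, gpx1, ish1, tpp1, SPACUNK4.16c, pmp1 and byr2 also shared a locus.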

How the data were processed

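Strand-specific poly(A) libraries, as the study's methods call them, were made with a KAPA mRNA HyperPrep kit. The study's methods and the sample labels disagree on the sequencer and read length. TopHat alignment and Cuffdiff were run by the authors on a Galaxy server, per the labels and methods. Versions, build, annotation and normalization option are not given in the sources used here. The deposited FPKM values, 1 column per library, were used as they stand. The tables also hold the authors' fold changes, test statistics, p-values and (24°C) q-values, and the 30°C table a side list of identifiers with values. None of these were used.

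A pseudocount of 1 was added, and a call was a log2 change beyond 0.8, the fold limit in the study's methods, used here without its p-value limit. No p-value was computed, as each group is 1 library. Identifiers were matched without regard to case to RefSeq ASM294v3 (5106 of 5143). Of 2348 matched genes alone in their locus, each was on the same chromosome and 81.6% shared an end to the base. Depth used 51 and 43 low genes with 200 bases taken off the locus length. Other lengths gave 12500000 to 13900000 and 9970000 to 11400000 fragments. Lists and members were chosen with earlier results of these data known. All 10 members were named, and of each list the called genes or the highest and lowest change, with the genes that share a locus with a member. SPACUNK4.16c, tpp1, byr1, byr2, gpx1, hsp9, cta3 and ish1 were named in addition, after their values were seen. Copies were sought with blastn 2.17.0. Python 3.11.15, numpy 2.4.6, pandas 2.3.3 and matplotlib 3.10.9 were used, and the functions were tested on simulated data.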

Additional observations from a re-analysis of the deposited data

How the results depend on the processing

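No paired analysis was possible because each strain has 1 library at each temperature and the labels carry no replicate numbers, and no library could be left out. Under a pseudocount of 0.1 or none, centring on genes averaging at least 10 FPKM and rescaling to a common sum, 0 of the 40 recomputed changes of the 10 genes moved by more than 0.25 on the log2 scale and 0 of the genes changed sign. The calls depended on the limit. A limit of 1 left 0 of the 10 genes lower, and a limit of 0.5 gave 1 higher and 3 lower. Of the 38 further genes, 1 in place of 2 was lower when genes with a mean FPKM under 10 or with a shared locus were left out, since spk1 then drops out. Its change was -1.80 with a pseudocount of 0.1 and -1.83 with none. The changes at 30°C and the ratios within a library kept within 0.25 on the log2 scale, as did the medians of the 10 genes, -0.10 overall and 0.0021 for the 5 alone in their locus, and of the 38. Depth at 30°C was not estimated.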

Other observations

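The core motif was also followed over all genes, a comparison added after seeing the data. Of 301 genes of the 24°C table with TGACGT in the promoter window, 23 (7.64%) were called higher and 4 (1.33%) lower in fas S.j. Of 4773 genes without it, 188 (3.94%) were called higher and 100 (2.10%) lower. The median changes were 0.055 and -0.0018, and 57.1% of the genes with the core were higher in fas S.j. against 47.9% of those without. For the longer ATGACGT, 9 of 79 genes (11.4%) were called higher and 0 lower, beside 4.04% and 2.08% of the 4995 genes without it. For the full palindrome, 2 of 14 genes were called higher and 0 lower, beside 4.13% and 2.06% of the 5060 without it. Both longer motifs contain the core, so their genes lie within the 301 and these counts are not separate from those above. Of the 10 genes of the pathway, atf1, gpd1 and ntp1 are counted among the 301, and none of the 3 was called. Genes are not independent replicates and neighbouring genes can share a window, so no test was run, and the part of Atf1 in these counts was not tested.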
